A study of Mus musculus with 24 samples.

Results

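The genes that encode the proteins of the cytosolic ribosome were followed over 7 mouse cell lines. Members were protein-coding genes whose symbol starts with Rpl, Rps or Rplp and a digit, together with Rpsa, leaving out the Rps6k kinases and symbols that mark pseudogenes. The gene table held 89 such symbols, and 88 of them (all but Rps27rt) had a probe among the 45547 gene names read by the arrays. Of these 88 genes, 43 encode standard proteins of the large subunit, 31 encode standard proteins of the small subunit and 3 encode the stalk proteins. The other 11 are paralogs, retrocopies or binding partners of a standard protein: Rpl3l, Rpl7l1, Rpl10l, Rpl22l1, Rpl32l, Rpl36al, Rpl37rt, Rpl39l, Rps19bp1, Rps23rg1 and Rps27l.

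Total RNA had been labelled with cyanine 3 and hybridised to 24 one-colour Agilent arrays, 1 sample each. B16F1-GFP-M (M, 3 arrays) is the parental line of a B16F1 mouse melanoma marked with green fluorescent protein. B16F1-GFP-D (D, 4 arrays) was grown from cells that had lain dormant in mice after vaccination, and B16F1-GFP-DB#1 (DB#1, 4 arrays), DB#2 (3 arrays) and DB#3 (3 arrays) are a later generation taken from the brain. All 5 melanoma lines were expanded in the same serum-containing medium, so the arrays read cultured cells, not cells inside a host. The 2 other lines, M0 (4 arrays) and J365 (3 arrays), are given in the labels only as myeloid cells, and which is parental or dormant is not stated there. All titles of these 2 lines also carry the tag p20, which no melanoma title has. The study compared dormant with parental cells in a melanoma and a leukemia model. Nothing in the labels says that the arrays of a line came from separate cultures, so p-values measure only the spread between arrays, which may be technical.

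A ribosome is built from a large and a small subunit, each made of ribosomal RNA and a fixed set of proteins that must be supplied in matched amounts. Proteins that fail to find a place are degraded, and free Rpl5 and Rpl11 bind Mdm2 and so connect ribosome supply with p53. The messengers of these genes are classic TOP messengers: transcription starts at a C that is followed by a run of pyrimidines, through which Larp1 and mTOR set their translation. MYC family factors raise the transcription of these genes and of the factors that assemble ribosomes.

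The start sites of members with the largest differences between the melanoma and myeloid lines, and of Rpl7l1, which was called between DB#2 and D, are shown because the pyrimidine run at the start is the sequence feature these genes are known to share. Each window holds 15 bases before and 15 bases after a start annotated by RefSeq on GRCm38, read 5′ to 3′ on the coding strand, and capitals mark every run of 7 or more successive C or T bases.
Rpl36a (chrX:134585639-134585668, plus strand): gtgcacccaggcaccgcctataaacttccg
Rpl37 (chr15:5116598-5116627, plus strand): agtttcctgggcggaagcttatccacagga
Rpl22l1 (chr3:28805493-28805522, plus strand): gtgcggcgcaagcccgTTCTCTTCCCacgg
Rpl34 (chr3:130730323-130730352, minus strand): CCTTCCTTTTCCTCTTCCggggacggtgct
Rpl34 (chr3:130730384-130730413, minus strand): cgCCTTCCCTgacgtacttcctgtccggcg
Rps7 (chr12:28635939-28635968, minus strand): gcttccggtttccacccacctacttccgct
Rps6 (chr4:86857353-86857382, minus strand): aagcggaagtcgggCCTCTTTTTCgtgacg
Rpl5 (chr5:107900513-107900542, plus strand): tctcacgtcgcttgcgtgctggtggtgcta
Rpl7l1 (chr17:46782642-46782671, minus strand): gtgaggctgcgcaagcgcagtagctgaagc
Rps19bp1 (chr15:80264292-80264321, minus strand): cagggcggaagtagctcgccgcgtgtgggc
A run of this length lay in 37 of the 81 windows that the table held for 69 member symbols (45.7%), beside 6095 of all 32851 windows of the same length (18.6%). Only the coding strand was searched. The table had no entry for Rpl17. The windows of Rpl22l1, Rpl34 and Rps6 held a run, whereas those of Rpl36a, Rpl37, Rps7, Rpl5, Rpl7l1 and Rps19bp1 did not, which says only that these letters are not within 15 bases of the annotated start.

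Values are log2 signals less the 75th percentile of the array, so that 0 is the brightness at that percentile, and a difference of 1 is a factor of 2. Of the 88 genes, 85 were well above background on all 24 arrays. The 3 others were paralogs known from other tissues: Rpl3l, known from muscle, was read on 2 arrays, and Rpl10l and Rpl39l, known from testis, on 1 and 2 arrays. None of the 3 was well above background on every array of any line, so they were not tested. The marker means went with the labels: the 7 pigment cell markers had a mean of 6.88 to 7.84 on melanoma arrays, against -4.60 to -4.17 on myeloid ones. Of these 7, 2 were still well above background on every myeloid array and 4 on none. The 8 blood cell markers were all well above background on every myeloid array, and their mean ran from 1.70 to 2.76 there and from -4.64 to -2.75 in melanoma. Of these 8, 2 were well above background on every melanoma array and 1 on none. One array stood apart, since D replicate 3 had 90.3% of its spots well above background, against 46.0% to 55.8% on the 23 others.

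The ribosomal protein genes sat lower in the melanoma lines than in the myeloid lines nearly throughout. The median of the 85 genes on an array ran from 7.59 (D replicate 3) to 8.47 (D replicate 1) over the 17 melanoma arrays and from 8.45 to 9.08 over the 7 myeloid arrays. Only D replicate 1 among the melanoma arrays rose above the lowest myeloid array. The line means of this median were 7.97 ± 0.17 in M (SD, n = 3), 8.09 ± 0.37 in D (n = 4), 8.19 ± 0.08 in DB#1 (n = 4), 8.05 ± 0.14 in DB#2 (n = 3) and 8.20 ± 0.10 in DB#3 (n = 3). In the myeloid lines it was 8.80 ± 0.26 in M0 (n = 4) and 8.80 ± 0.31 in J365 (n = 3). Arrays lay on 3 slides that each held every line, and the arrays of slide 2 were the lowest of M, D, M0, DB#3 and J365.

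**Figure D1:**
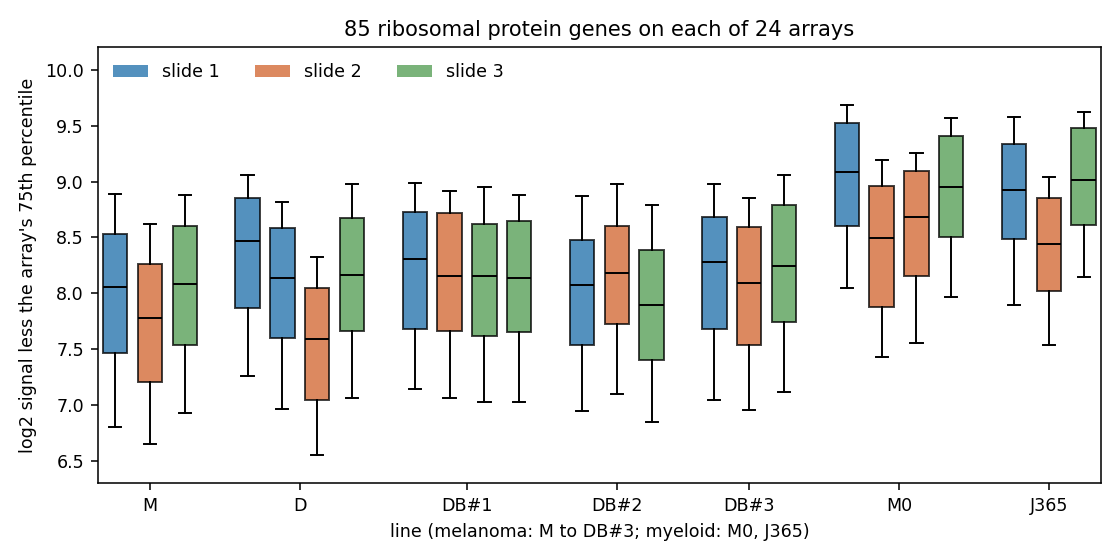
The y axis gives the log2 signal less the array's 75th percentile for the 85 ribosomal protein genes read on all arrays, with 1 box per array (line inside: median, box: quartiles, whiskers: 10th to 90th percentile), grouped by line and coloured by slide. Medians of the melanoma arrays run from 7.59 to 8.47, and those of the 7 myeloid arrays from 8.45 to 9.08.

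In the comparison of the mean of the 5 melanoma lines with the mean of the 2 myeloid lines, limma with Benjamini-Hochberg adjustment called 79 of the 85 genes lower and 1 higher in melanoma. These lines are of different origin and most of the transcriptome differed between them: 71.8% of the 23753 genes tested were called, 38.5% lower and 33.3% higher. The median difference of the members was -0.67, a factor of 1.59, beside -0.13 over all genes tested. A factor of 2 or more separated the line means of 14 members. For 32 of the 85 members every melanoma array lay below every myeloid array, a pattern found in 16.1% of all genes tested. The opposite pattern was found in 0 members, and its share over all genes was not taken. Within slides 1, 2 and 3 the median difference of the members was -0.80, -0.52 and -0.81, and 82 members were lower in melanoma within each of the 3 slides. The size depended on the scaling. After quantile normalization the median difference was -0.27 beside -0.15 for all genes, 62 members were called lower, all of them among the 79, and 6 were called higher: Rpl27, Rpl31, Rpl32l, Rpl35, Rps19bp1 and Rps27l, named after their values were seen. Of these, Rpl27, Rpl31 and Rpl35 had been called lower before. No share of all genes called was taken for quantile normalization. The shares of 38.5% and 33.3% are thus not a baseline for the counts of 62 and 6. Every value is relative to the bulk of the probes on its array, so the absolute amount of RNA per cell was not read.

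Both subunits shifted by the same median. All 43 standard large-subunit genes were lower in melanoma with 75th percentile scaling, though 10 of them changed sign after quantile normalization, and 42 of them were called, with a median difference of -0.69 and a range from -2.35 to -0.21. All 31 standard small-subunit genes were lower too (Rps24 and Rps3a1 changed sign after quantile normalization), 29 of them called, with a median of -0.69 and a range from -1.19 to -0.18. The stalk genes, whose products reach out to the elongation factors, were all called lower: Rplp0 by -0.89 ± 0.10 (SE), Rplp1 by -0.88 ± 0.12 and Rplp2 by -0.48 ± 0.09, with adjusted p of 1.1e-07, 2.2e-06 and 0.00015. Rpsa, the small-subunit protein also known as the laminin receptor, differed by -0.71 ± 0.09 (limma, adjusted p = 1e-06). The 35 tested genes with a pyrimidine run in a window and the 30 without one both had a median of -0.67. Their ranges ran from -1.48 to 0.01 and from -2.35 to 0.70. Members without a window are left out here, and a difference between the sets was not tested.

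**Figure D2:**
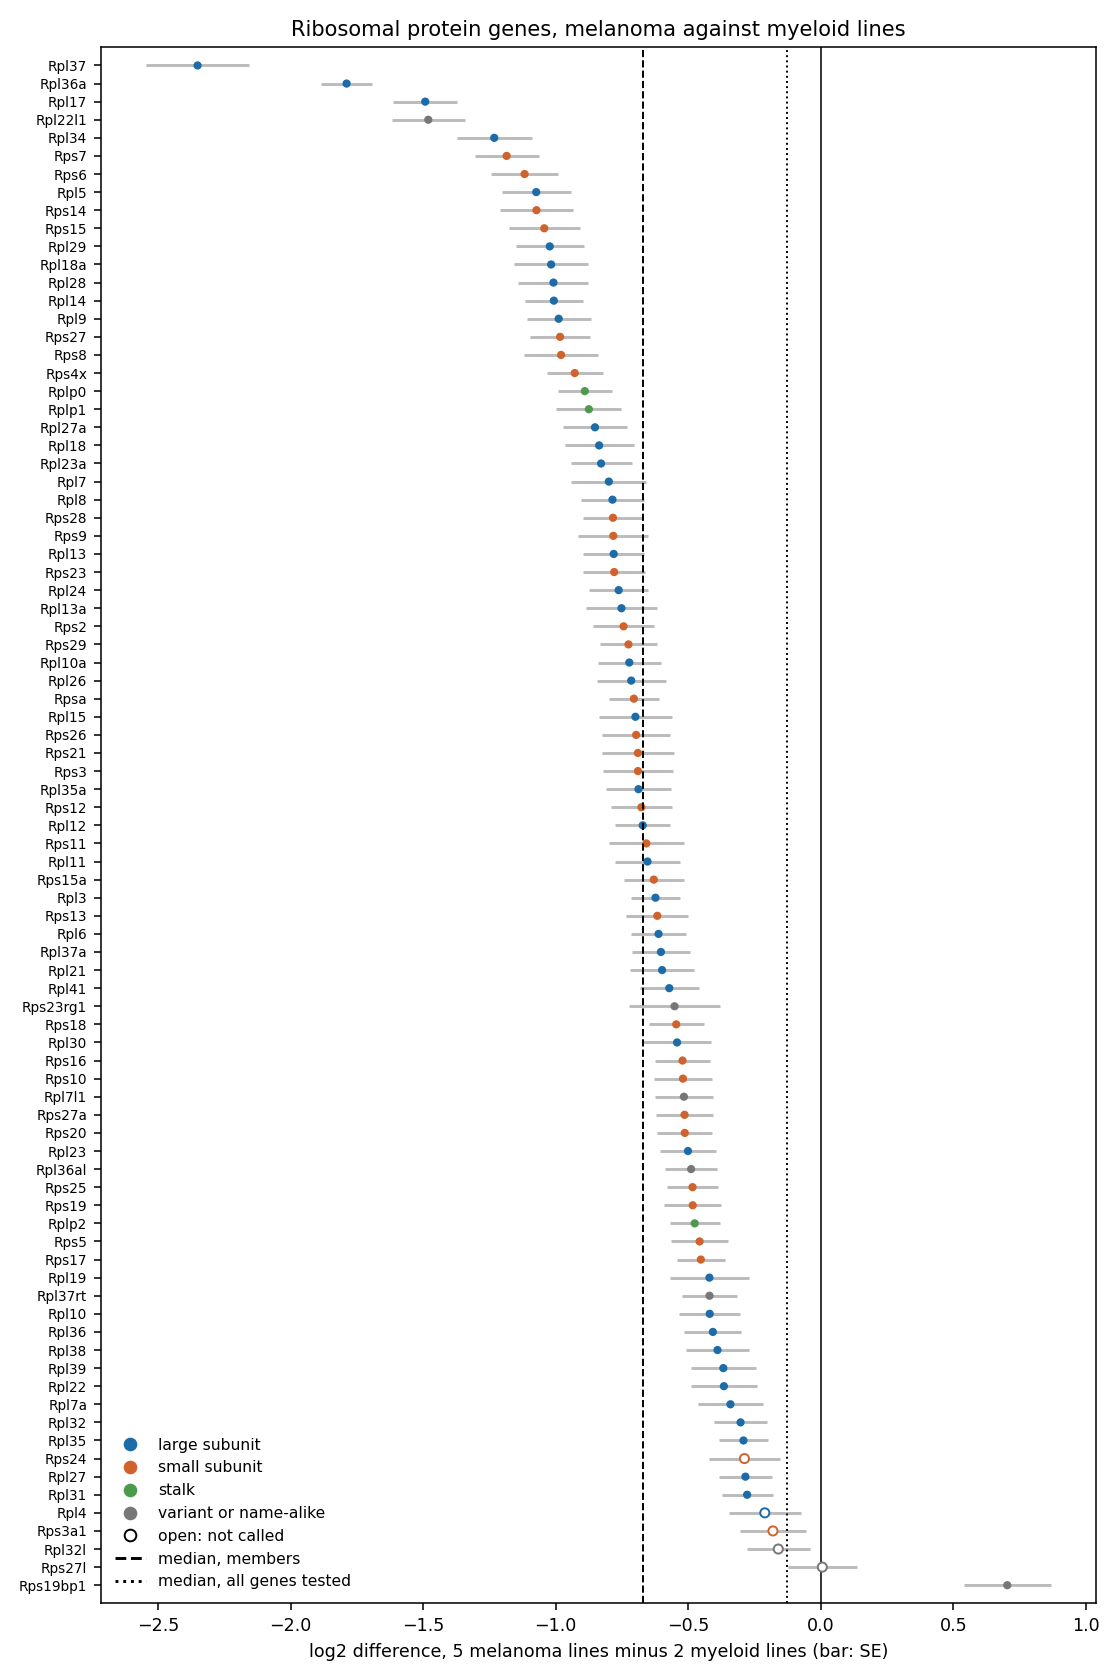
Each row is 1 of the 85 tested ribosomal protein genes and the x axis is the log2 difference between the mean of the 5 melanoma lines and the mean of the 2 myeloid lines, with its SE as a bar. Points lie left of 0 for all but Rps27l and Rps19bp1, the dashed line marks the members' median of -0.67 and the dotted line the median of all genes tested, -0.13.

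The 8 members with the largest fall came from both subunits. Rpl36a, a large-subunit protein encoded on the X chromosome, read 6.56, 7.03 and 7.26 (lowest, median and highest) over the melanoma arrays and 8.35, 8.77 and 9.01 over the myeloid arrays. The highest melanoma array was thus more than 1 log2 unit below the lowest myeloid array, and the difference was -1.79 ± 0.10 (SE, limma adjusted p = 7.2e-13), a factor of 3.46. Rpl36al, its retrotransposed paralog, ran from 6.0 to 6.86 in melanoma and from 6.65 to 7.15 in myeloid cells, so that its ranges overlapped while its difference of -0.49 ± 0.10 was called (adjusted p = 0.00014, limma). Rpl17 read between 6.28 and 7.23 in melanoma (median 6.81) and between 7.83 and 8.59 in the myeloid lines (median 8.40), a difference of -1.49 ± 0.12. Rpl34 gave 6.55, 7.19 and 7.68 against 7.98, 8.42 and 8.82, or -1.23 ± 0.14. The groups did not overlap for either gene.

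Rpl5, which carries 5S ribosomal RNA into the large subunit, read from 6.13 to 6.92 in melanoma (median 6.68) and from 7.16 to 8.15 in the myeloid lines (median 7.56), a difference of -1.07 ± 0.13. Rpl11, its partner in that particle, differed by -0.65 ± 0.12. In the small subunit, Rps7 read 6.73, 7.15 and 7.40 against 7.69, 8.25 and 8.62, which made -1.19 ± 0.12. Rps6, the substrate of the S6 kinases, read 7.02, 7.66 and 8.0 against 8.24, 8.86 and 9.06, which made -1.12 ± 0.13. All 4 genes were called, with adjusted p between 2.1e-08 (Rps7) and 7.4e-05 (Rpl11) by limma.

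Rpl37 had the largest difference of the members, on a dim probe. Its values lay between -4.11 and -2.70 over the melanoma arrays (median -3.28) and between -2.04 and -0.36 over the myeloid arrays (median -1.02), and the difference was -2.35 ± 0.19 (limma adjusted p = 8.2e-10). With a normexp background correction it was -1.33. The retrocopy Rpl37rt, whose probe can share sequence with Rpl37 messengers, differed by -0.42 ± 0.10. Ribosomal protein genes have many processed copies in the genome, and the values of any member can hold signal from such copies.

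Several paralogs had differences far from those of their standard partners, though no difference between partners was tested. Rpl22l1, which can replace Rpl22 in the large subunit and is repressed by it, read 5.68, 6.48 and 7.02 over the melanoma arrays and 7.43, 7.93 and 8.14 over the myeloid arrays. No melanoma array reached the lowest myeloid array, and the difference was -1.48 ± 0.14 (limma adjusted p = 5.5e-09). Rpl22 itself differed by -0.37 ± 0.12 (limma adjusted p = 0.012), and its ranges, 6.31 to 7.23 and 6.96 to 7.64, overlapped. After quantile normalization the difference of Rpl22 was -0.16 (limma adjusted p = 0.071).

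Rps27l, a p53 target and paralog of Rps27, differed by 0.01 with a 95% interval from -0.27 to 0.28, and took either sign, depending on the alternative. Rps27 differed by -0.98 ± 0.11. Rpl7l1 differed by -0.52 ± 0.11 and Rpl7 by -0.80 ± 0.14. Rps19bp1, a nucleolar partner of Rps19 that is not a ribosomal subunit and is also known as an activator of Sirt1, was the single member called higher. It read 3.62, 4.20 and 4.99 over the melanoma arrays against 2.87, 3.64 and 3.87 over the myeloid arrays, a difference of 0.70 ± 0.17 (limma adjusted p = 0.00074), with 0.81, 0.50 and 0.65 within slides 1, 2 and 3. Rps19 differed by -0.48 ± 0.11. The standard genes Rpl3, Rps4x, Rpl10 and Rpl39 differed by -0.62, -0.93, -0.42 and -0.37, all called. The other Rpl3 probes gave -1.22 and -1.07. After quantile normalization Rpl10 was not called, and the probe used for Rpl39 turned to 0.10 and was not called. The other Rpl39 probes then gave -0.01, -0.12, -0.68 and -0.47.

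The 5 members that were not called were Rps24 (-0.29, limma adjusted p = 0.060), Rpl4 (-0.21, 95% interval -0.50 to 0.08), Rps3a1 (-0.18, -0.44 to 0.08), Rpl32l (-0.16, -0.41 to 0.09) and Rps27l. With slide as a block Rps24 and Rps3a1 were called lower (limma adjusted p = 0.023 and 0.032), and the other 3 were not. The intervals of Rpl4, Rps3a1 and Rpl32l reach past the smallest called fall, -0.28. In Rps24 and Rps3a1 the gene's value also depended on which probe was read.

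Members had 149 usable probes, and tested 1 by 1, as was decided after seeing the data, 130 of 145 probes were called lower and 6 higher in melanoma (37.6% and 35.5% of 30882 probes of all genes). Of 45 members with several probes tested, 40 had all probes on the same side of 0. The exceptions were Rpl30, Rps2, Rps3a1, Rps24 and Rps27a, each with 1 probe called higher in melanoma, at 0.62, 0.36, 0.61, 2.34 and 0.54.

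Rps24 had the widest split, described here after its values were seen. Its transcripts are known to differ by very short exons near the end of the coding sequence. The probe of NM_011297 read 6.06, 6.49 and 7.65 (lowest, median and highest) over the melanoma arrays and 3.57, 4.44 and 5.08 over the myeloid arrays. The probe of NM_207634 read the other way, 5.86, 6.77 and 6.99 against 6.92, 7.49 and 7.78. The third, of NM_207635, read 7.71, 8.61 and 8.84 against 8.34, 8.94 and 9.21 and was the one used for the gene. Differences were 2.34 ± 0.20, -0.83 ± 0.16 and -0.29 ± 0.13, with adjusted p of 8.8e-10, 0.00011 and 0.058 when limma was run over all probes. The first was 3.09, 2.19 and 1.73 within slides 1, 2 and 3. Within an array, the signal of NM_011297 less that of NM_207635 lay between -2.33 and -0.84 in melanoma and between -5.25 and -3.90 in myeloid cells, without overlap, so the 2 probes changed unequally.

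Among the melanoma lines, the same probe of NM_011297 was highest in DB#2, at 7.33 on average (SD 0.32, n = 3; the 3 arrays read 7.65, 7.33 and 7.01), while D averaged 6.51 (its 4 arrays read 7.07, 6.42, 6.06 and 6.47). DB#2 lay above D within every slide, by 0.58, 1.59 and 0.55, but the ranges overlapped and the difference of 0.83 ± 0.33 was not called (limma over all probes, adjusted p = 0.16).

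**Figure D3:**
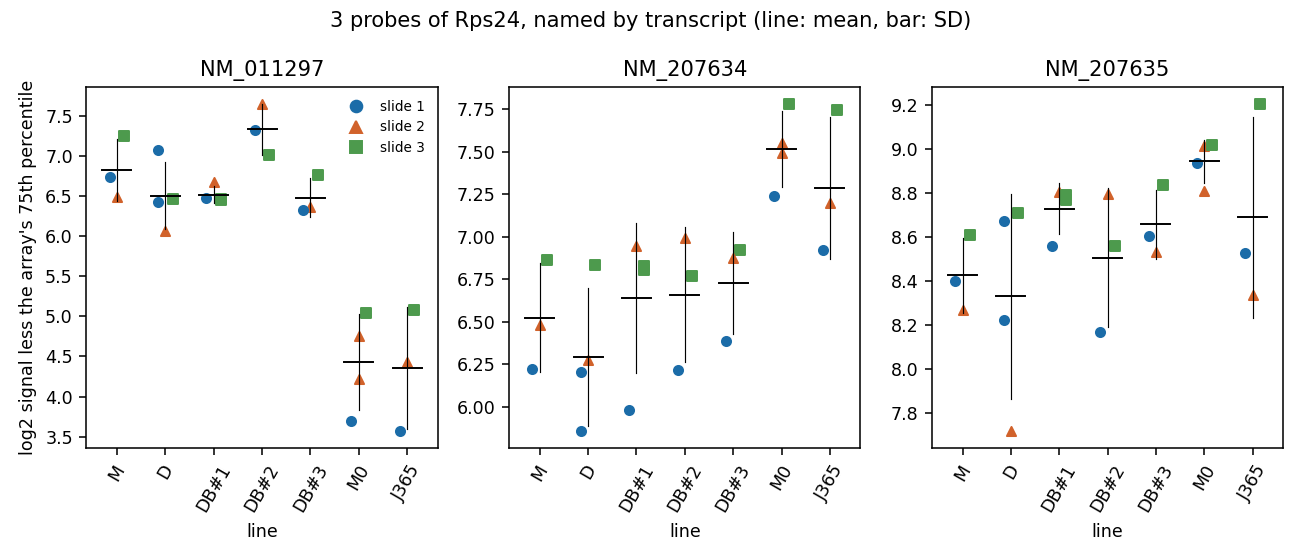
The 3 panels give the log2 signal, less the array's 75th percentile, of the 3 Rps24 probes (named by transcript) on 24 arrays, with lines on the x axis, symbols by slide, the mean as a bar and the SD as a vertical line. The NM_011297 probe runs from 6.06 to 7.65 in melanoma and from 3.57 to 5.08 in myeloid cells, and the NM_207634 probe is higher in the myeloid lines.

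The question of dormancy was addressed by comparing the dormant lines with their parent and with each other. In D versus M, 0 of the 85 members were called, beside 2.97% of the 20145 genes tested, and 1 member (Rpl7l1) passed an unadjusted p of 0.05. The median difference was 0.09 (all genes: -0.01), 65 members were above 0, and the range ran from -0.24 to 0.63. This median rested on single D arrays: it was -0.02 without D replicate 1 and 0.26 without D replicate 3, the array with 90.3% of spots above background. On that array the blood cell, red cell and fibroblast markers also had their highest mean of any melanoma array, -2.75, -2.82 and -2.29, and their part in the result was not tested. Within slides 1, 2 and 3 the members' median in D versus M was 0.19, -0.15 and 0.08. The 95% interval of the difference lay within a factor of 2 either way for 84 of the 85 members, the exception being Rpl37.

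The later dormant lines gave similar values, and share the M arrays with D. In DB#1 versus M, 0 members were called (3.69% of 20708 genes), 0 passed the unadjusted threshold, and the median was 0.23 (all genes: 0.04) with 80 members above 0. In DB#3 versus M, 0 were called (2.76% of 20581 genes), again with 0 at the unadjusted threshold, a median of 0.22 (all genes: 0.03) and 80 above 0. In DB#2 versus M, 0 were called (3.44% of 20951 genes), the median was 0.08 (all genes: 0.02), and 1 member, Rpl22l1, passed unadjusted. Within slides 1, 2 and 3 the medians were 0.19, 0.43 and 0.07 for DB#1 versus M and 0.15, 0.33 and 0.18 for DB#3 versus M, above 0 in each slide. For DB#2 versus M they were -0.01, 0.42 and -0.10. Of the 85 intervals, 84 lay within a factor of 2 in each of the 3 comparisons. This bound is wider than the members' factor of 1.59 between melanoma and myeloid lines. Smaller shifts are thus not excluded, here or in the other comparisons of related lines.

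Set against D, DB#1 had 0 members called (0.475% of 20203 genes) and DB#3 had 0 called (0.369% of 20033 genes), with medians of 0.12 and 0.12 and 0 members at the unadjusted threshold in either. All 85 intervals lay within a factor of 2 in both comparisons. Without D replicate 3 these medians turned to -0.05 and -0.05.

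With 75th percentile scaling, DB#2 versus D was the single comparison between related lines with a called member: 1 of 85 was called, lower, where 6.34% of the 20651 genes tested were called. After quantile normalization 10 were called, 9 lower and 1 higher (Rps12). The share of 6.34% holds for 75th percentile scaling, and none was taken for quantile normalization. The members' median was 0.01, and -0.15 without D replicate 3. It was -0.18, 0.60 and -0.19 within slides 1, 2 and 3, with 78, 2 and 79 of the 85 members lower. Rpl7l1, a nucleolar paralog of Rpl7, read 1.64, 1.77, 1.33 and 1.49 on the 4 D arrays and 1.06, 0.91 and 0.67 on the 3 DB#2 arrays. The groups did not overlap, and the difference was -0.68 ± 0.18 (limma adjusted p = 0.031), with -0.79, -0.27 and -0.82 within slides 1, 2 and 3. The call was lost without D replicate 2 (adjusted p = 0.093), D replicate 4 (0.053), DB#2 replicate 2 (0.092) or DB#2 replicate 3 (0.18), and under 4 of the alternative settings. M read 1.41, 0.93 and 0.96, close to DB#2, and DB#2 versus M gave -0.22 with an interval from -0.63 to 0.19. Rpl7 differed between DB#2 and D by -0.05.

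Rpl22l1 was lowest in DB#2 as well. It read 6.02, 5.69 and 5.68 on the 3 DB#2 arrays, beside 7.02, 6.35, 5.82 and 6.42 in D, 6.59, 6.10 and 6.48 in M, 6.76, 6.49, 6.55 and 6.50 in DB#1 and 6.76, 6.32 and 6.54 in DB#3. Only D replicate 3 fell into the DB#2 range. The difference from D was -0.61 ± 0.23 (95% interval -1.09 to -0.13) and that from M was -0.59 ± 0.25, and limma called neither (adjusted p = 0.14 and 0.29). Without D replicate 3 it was called against D, at -0.80 (limma adjusted p = 0.027), and after quantile normalization it was called against D and M. Rpl22 differed between DB#2 and D by 0.17.

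Over the 5 melanoma lines the tested members with the widest range of line means were Rpl22l1 (0.78 from DB#2 to DB#1), Rpl37 (0.68 from DB#2 to D), Rpl7l1 (0.68 from DB#2 to D), Rpl18 (0.42 from M to DB#3) and Rpl29 (0.41). The standard deviation within lines was 0.30 for Rpl22l1, 0.44 for Rpl37, 0.23 for Rpl7l1 and 0.28 for Rpl18. The ends of the Rpl37, Rpl7l1 and Rpl18 ranges were compared, and only that of Rpl7l1 was called. Brain-derived lines were not compared with each other, so the Rpl22l1 and Rpl29 ranges were not tested from end to end.

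**Figure D4:**
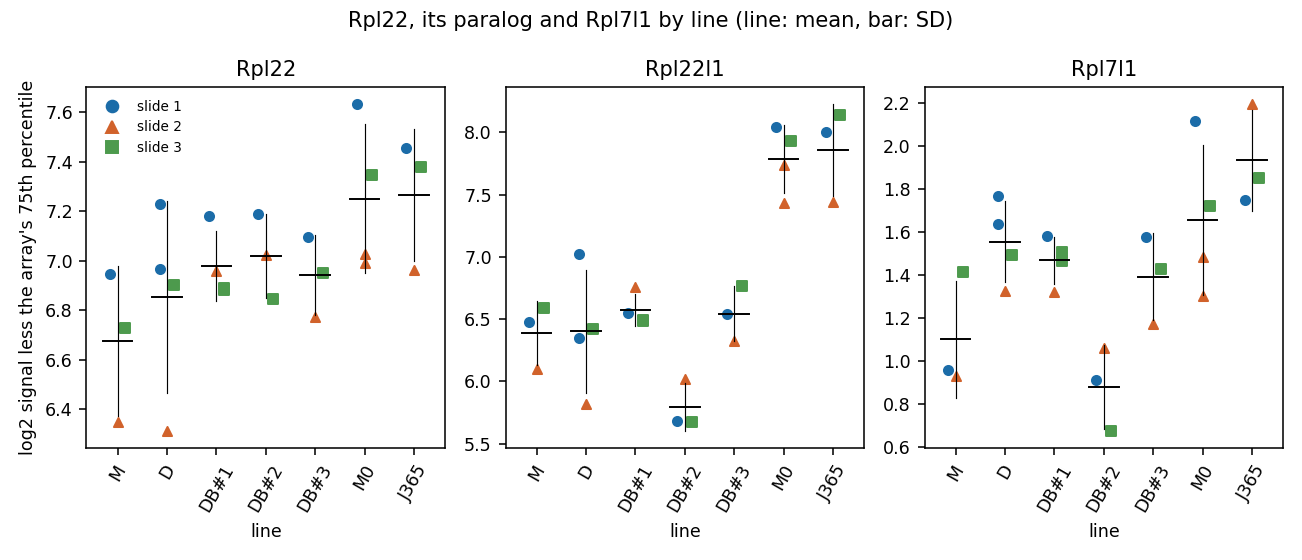
Log2 signal less the array's 75th percentile (y axis) of Rpl22, Rpl22l1 and Rpl7l1 on the 24 arrays by line (x axis), with symbols by slide, the mean as a bar and the SD as a vertical line. Rpl22l1 and Rpl7l1 have their lowest means in DB#2, 5.79 and 0.88, and Rpl22 does not.

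In the myeloid pair, J365 versus M0, 0 of 85 members were called (1.47% of 20660 genes) and 0 passed the unadjusted threshold. The median difference was 0.05 (all genes: 0.02), 55 members were above 0, and 84 intervals lay within a factor of 2. Within slides 1, 2 and 3 this median was -0.16, -0.05 and 0.10, with 80, 60 and 17 of the 85 members lower in J365. The difference between the models, D minus M less J365 minus M0, called 0 members (2.08% of 23120 genes), with a median of 0.08, 0 members at the unadjusted threshold and 84 intervals within a factor of 2. The median of this difference within slides 1, 2 and 3 was 0.35, -0.10 and -0.02.

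**Figure D5:**
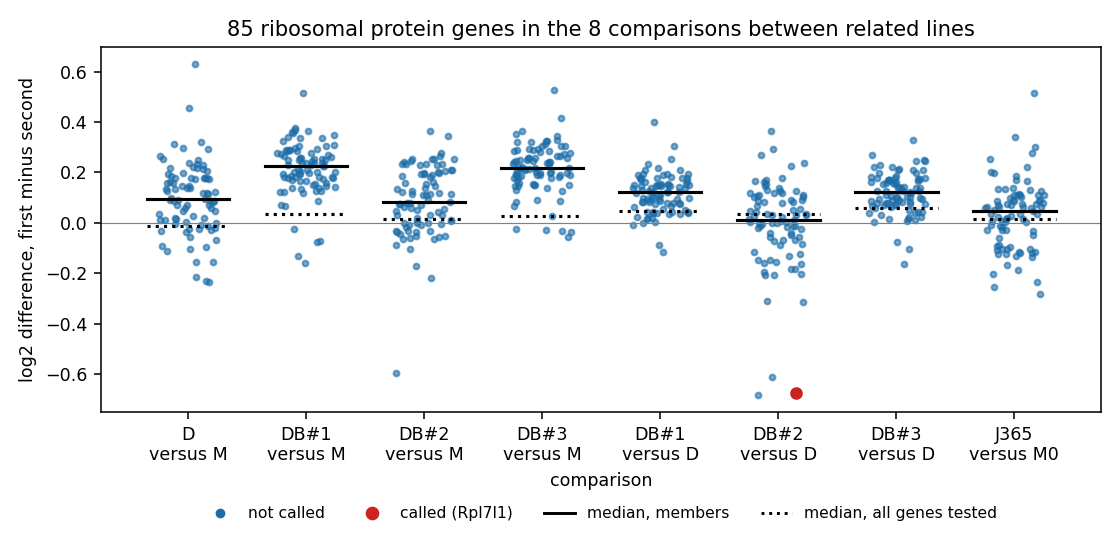
Each point is 1 of the 85 ribosomal protein genes and the y axis is the log2 difference, first line minus second, in 8 comparisons of related lines (x axis), with solid bars for the members' median and dotted bars for that of all genes tested. Medians lie between 0.01 and 0.23, and the single called member is Rpl7l1 in DB#2 versus D, at -0.68.

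The other genes of the ribosome's supply line were followed in lists. Fau and Rack1, subunit proteins with other names, were called lower in melanoma than in myeloid cells, by -0.95 and -0.27 (Rack1 turned to 0.19 after quantile normalization), and neither was called in any comparison between related lines. Between melanoma and myeloid lines 38.5% of all genes tested were called lower and 33.3% higher, with a median of -0.13. All 14 translation factors with TOP messengers were called lower in melanoma, with a median of -0.59, led by Eef1g (-1.45), Eif4b (-1.37) and Pabpc1 (-1.27). Ribosome assembly factors and mitochondrial ribosomal proteins had medians on the other side. Of the 25 assembly factors 13 were called higher and 4 lower (33.3% and 38.5% of all genes), with a median of 0.27, led by Nop2 (1.59), Bop1 (1.11) and Rrp12 (1.07). Of the 78 mitochondrial ribosomal proteins 47 were called higher and 13 lower, beside the same shares of all genes, with a median of 0.36. Mrpl35 was not well above background on any of the 7 myeloid arrays and was at least 4.72-fold higher in melanoma.

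Of 14 RNA polymerase I genes 5 were called higher in melanoma, among them the catalytic subunit Polr1a (2.11), near the 33.3% of all genes. Another 8 of the 14 were called lower, among them Twistnb (-0.98), where 38.5% of all genes were. The list had a median of -0.41 (all genes: -0.13). Of 16 regulators, 7 were called higher and 5 lower, both near the shares of all genes (33.3% and 38.5%). Myc averaged between 1.32 (M) and 2.35 (D) over the melanoma lines and 3.80 and 3.90 in M0 and J365, a difference of -1.89 ± 0.14. Mycn averaged 5.39 and 5.50 in M0 and J365 and was well above background on a single melanoma array. Of 11 quality control factors 3 were called higher, near the 33.3% of all genes, and 1 lower, where 38.5% of all genes were.

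Between related lines few genes of these lists were called. Most assembly factors had values above 0 in the comparisons with M and in J365 versus M0, but not in DB#2 versus D. In D versus M, 24 of the 25 were above 0 with a median of 0.44 (all genes: -0.01). Of them 0 were called (2.97% of all genes) and 10 passed an unadjusted p of 0.05. In DB#1, DB#2 and DB#3 versus M the medians were 0.47, 0.28 and 0.45 (all genes: 0.04, 0.02 and 0.03). In these, 1, 0 and 1 assembly factors were called (3.69%, 3.44% and 2.76% of all genes). Each time it was Fbl, the methyltransferase of the box C/D particles (0.65 and 0.66). All comparisons with M share its arrays, and no values within slides or without single D arrays are given for this list. In J365 versus M0 all 25 were above 0, with a median of 0.42 (all genes: 0.02), 0 called (1.47% of all genes) and 6 at the unadjusted threshold. The ribosomal protein genes had medians of 0.09, 0.23, 0.08, 0.22 and 0.05 in the same 5 comparisons. Against D, 16, 7 and 13 of the 25 assembly factors were above 0 in DB#1, DB#2 and DB#3. Their medians were 0.05, -0.15 and 0.003 (all genes: 0.05, 0.03 and 0.06). In each, 0 were called (0.475%, 6.34% and 0.369% of all genes), and 0, 5 and 0 passed the unadjusted threshold. Myc was called higher in D (1.04 ± 0.22), DB#1 (0.95 ± 0.23) and DB#3 (0.93 ± 0.24) than in M, with limma adjusted p of 0.011, 0.016 and 0.038, and was not called in DB#2. Polr1e of RNA polymerase I was called higher in D and DB#1 than in M (0.71 and 0.71).

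The kinases of the S6 family, which act on Rps6 and other targets, held the largest change of these lists between related lines. Rps6ka6 was well above background on all 3 DB#2 arrays, at a mean of -0.08, and on 0 arrays of any other line. It was at least 18.5-fold higher in DB#2 than in M and at least 18.2-fold higher than in D (limma adjusted p = 1.8e-07 and 1.2e-07). Rps6ka2 was lower in DB#2 than in M by -1.16 ± 0.21 and lower than in D by -0.92 ± 0.20 (adjusted p = 0.0016 and 0.0054). Rps6 itself was not called in either comparison.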

How the data were processed

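Each of the 24 arrays had 1 scanner table made by the authors with Agilent Feature Extraction 10.7.3.1 (per the labels and file headers). The deposited value used was gProcessedSignal, an intensity on a linear scale that the authors' software had corrected for background and not scaled between arrays. A deposited series table held the same intensity values (1511424 of 1511424 equal), and served as the setting without scaling.

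From these, 117 of 56605 probes flagged as outliers were left out, spots of a probe were averaged, and the log2 intensity less the 75th percentile of its array was taken. No non-control spot was saturated (0 spots), and 0 pairs of arrays held identical values. Gene names came from the transcript accession through a RefSeq table of GRCm38.p6 (21638 of 21870 NM accessions matched). The array design refers to mm9, so no array coordinates are given. A gene was read by its brightest probe. The 151 probes of members lost 2 to the outlier filter.

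Lines were compared with limma 3.58.1 (R 4.3.3), in 1 model of all 24 arrays with a term per line and 17 residual degrees of freedom. A gene was tested where the scanner software marked it well above background on all arrays of 1 or more lines in the comparison. Benjamini-Hochberg adjustment ran over all genes tested, with 0.05 as the threshold for a call. The number of arrays limits the precision. The steps were tested on simulated data.

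Alternatives were quantile normalization, normexp (offset 50, on the median signal and median background, since the mean signal is not among the columns), other scalings and filters, the mean over a gene's probes, the lines compared alone, slide or replicate number as a block, and leaving out each array. Added after seeing the data were leaving out both D replicates 1 and 3, and testing each probe. Members, lists and the rule for named genes were chosen with earlier results of these data known. Named were, beyond the variants and their partners, the stalk genes and Rpsa, every called member of comparisons between related lines, the 8 largest called differences each way between melanoma and myeloid lines, the 5 widest ranges over melanoma lines, and up to 3 called genes of each list.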

Additional observations from a re-analysis of the deposited data

Results flagged for a closer look

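Among the 84 groups of 4 arrays checked (D, DB#1 and M0, for the members' median, the named members and the Rps24 probe of NM_011297), 4 had a lone array far from the other 3, and chance flags about 1 in 20 such groups. All 4 were in DB#1. The median of the ribosomal protein genes was 8.31 on DB#1 replicate 3 and between 8.14 and 8.16 on the others. Rpl7 read 8.22 on the same array, against 7.98 to 8.01. Rpl17 read 6.97 on DB#1 replicate 1, against 6.81 to 6.84, and the Rps24 probe of NM_011297 read 6.68 there, against 6.46 to 6.47. Each gap was at most 0.24 on the log2 scale.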

How the results depend on the processing

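The members called lower in melanoma than in myeloid cells kept their direction in most alternatives: 58 were called lower in all 34 settings compared. With all genes, the median between these groups was -0.13 after 75th percentile scaling and 0.03 without scaling, where the members' median was -0.52. Quantile normalization gave a members' median of -0.27. Leaving out each array gave medians from -0.75 to -0.61 and 75 to 82 members called. The probe used for Rpl39 turned to 0.10 after quantile normalization, while the other Rpl39 probes stayed below 0. Rps27l changed sign with the percentile over detected probes (-0.052), slide as a block (-0.035) or the replicate block (-0.061), and without single arrays it ran from -0.056 to 0.086. In DB#2 versus M, 1 member was called after quantile normalization and 1 with the percentile over detected probes (Rpl22l1 in both), and 3 without scaling (Rpl22, Rpl28 and Rps6, all higher). In DB#2 versus D the count was 10 after quantile normalization and 2 with the percentile over detected probes. It was 0 with normexp, without scaling, without the filter on dim probes and with the arrays of both lines alone. Leaving out each array gave 0 to 2, with 2 without D replicate 3. Leaving out both D replicate 1 and D replicate 3 gave D versus M a median of 0.17. The cause was not tested. Replicate numbers did not pair the arrays: deviations of same-numbered arrays of different lines had a mean correlation of 0.08 over 49 pairs, and those of arrays on 1 slide 0.55. The replicate block, which leaves out the 2 unnumbered arrays, called 82 members between melanoma and myeloid lines (median -0.78), 1 in DB#2 versus D and 0 in each other comparison. Slide as a block also called 82 (median -0.70), adding Rps24 and Rps3a1, with 1 in DB#2 versus D and 0 in each other comparison. Shares of all genes called were taken only for 75th percentile scaling without a block, so these counts have none beside them. Normexp used median spot signals. The brightness over background limits Rpl37 and the 3 members not tested.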
